A study of Triticum aestivum with 12 samples.

Results

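Few genes were lower than WT in the grain and higher than WT in the flag leaf of the low-gluten wheat line E82. Of the 107892 genes counted, 27 are described here as the opposed genes. They were chosen by their values in the same libraries. Levels in CPM, the count scaled to its library's total count, were taken from the table of estimated counts per gene. A gene had to hold at least 10 counts in each WT leaf library and a mean of at least 5 CPM in WT grain, which left 17799 eligible genes. It then had to show an E82/WT ratio of mean CPM of at most 0.67 in grain with each E82 library below each WT library, and a ratio of at least 1.5 in leaf with each E82 library above each WT library. A total of 28 genes met these conditions, and the starch synthase gene SSI (TraesCS7B02G018600) was left out by the selection rule. The ratios of the opposed genes are therefore descriptions, and no test is drawn from them.

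The series compared the bread wheat line BW208, the wild type (WT), with E82, a line derived from it that carries hairpin RNAi constructs against the ω-, α- and γ-gliadin genes. The constructs are driven by endosperm-specific promoters, and E82 is a single transgenic line. RNA was sequenced from developing grain and from flag leaf at 20 DAA (days after anthesis), with 3 plants of each line as biological replicates, giving WT grain, E82 grain, WT leaf and E82 leaf, 12 libraries in all. The flag leaf is the uppermost leaf and feeds sugars to the filling grain, whose endosperm builds them into starch and storage proteins. Starch synthases lengthen the glucan chains of starch, and isoamylases remove misplaced branches from amylopectin. Both kinds of enzyme act in leaf chloroplasts as well as in the amyloplasts of the endosperm, from different gene copies in part. Bread wheat holds A, B and D subgenomes, so most genes occur as closely similar copies on the chromosomes of one group, and reads that fit several copies may have been divided among them.

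Depth and spread differed between the groups. Total counts ranged from 27173003 to 41002932 in WT leaf, from 55529571 to 59921210 in E82 leaf, from 47733400 to 50630025 in WT grain and from 31716861 to 44827227 in E82 grain. The WT leaf libraries stood apart, with 31623 to 45720 genes above 0 counts against 55997 to 59916 in E82 leaf. The study also reported a smaller share of aligned reads in each WT leaf library than in any other library. The biological coefficient of variation was 1.67 in WT leaf, 0.385 in E82 leaf, 0.641 in WT grain and 0.684 in E82 grain. On library totals the median eligible gene had an E82/WT ratio of 1.12 in grain and 0.798 in leaf, so that on this scale the opposed genes lay on the other side of 1 from the median gene in both tissues. With TMM scaling the median log2FC of all genes tested was 0.01 in grain and 0.21 in leaf, where it had the same sign as that of the opposed genes. The tissue labels were checked with 9 endosperm genes (GBSSI/waxy, Glo3, TaPBF and OsBT1-1), whose summed level lay between 7568 and 12551 CPM in the grain libraries and between 0.117 and 30.4 CPM in the leaf libraries.

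The grain conditions were met by 535 genes, 3.01% of those eligible, and the leaf conditions by 1207 genes, 6.78%. The share of the 535 that also met the leaf conditions was 5.23%, near the 6.78% of all eligible genes, and the 28 genes that met both made up 0.157% of those eligible. By comparison, 250 of the 535 genes (46.7%) were lower in E82 in both tissues by the inverted leaf conditions, which 21.2% of the eligible genes met. Some of the genes low in both tissues lay together on chromosome 1B. Most eligible genes of a 1B stretch, from TraesCS1B02G087700 to TraesCS1B02G129900, were far lower in E82 in both tissues. The log2 ratios in grain and leaf were -5.47 and -6.08 at its first gene and -8.04 and -8.21 at its last. The part of this stretch in the 250 was not counted. The mirrored pattern, higher in E82 grain and lower in E82 leaf, was found for 205 genes, 1.15% of those eligible. Its grain conditions were met by 1163 genes (6.53%) and its leaf conditions by the 21.2% given above. Since the selection used both contrasts, these counts are descriptions, and they depend on the scaling. On CPM with TMM scaling the same rule chose 85 genes, among them all 27.

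**Figure D1:**
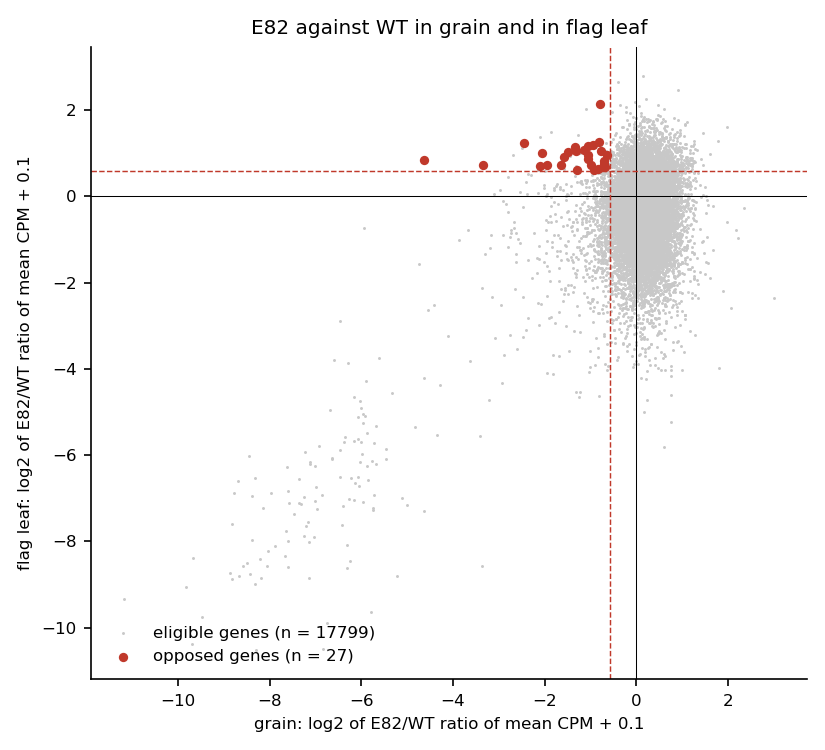
Log2 of the E82/WT ratio of mean CPM, with 0.1 CPM added, in grain (x axis) and flag leaf (y axis) for the 17799 eligible genes (grey) and the 27 opposed genes (red), with dashed lines at the ratios of 0.67 and 1.5. The opposed genes lie in the sparse upper left field, beside grey points whose libraries overlapped between the lines. Genes low in both tissues, among them those of a stretch of chromosome 1B, extend to the lower left.

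The opposed genes differed more from WT in grain than in leaf. In grain their E82/WT ratio ran from 0.0221 to 0.639 with a median of 0.476, and in leaf from 1.53 to 4.40 with a median of 1.88. On the log2 scale the grain change was the larger one for 18 of the 27. A ratio of 0.5 or less in grain was seen in 16 genes, a ratio of 2 or more in leaf in 11, and both in 7. The gaps between the groups were often narrow. The lowest WT grain library was less than 1.2 times the highest E82 grain library in 14 genes, the lowest E82 leaf library was less than 1.2 times the highest WT leaf library in 12, and only 7 had a gap of at least 1.2 in both tissues. No gene had a gap of at least 1.5 in both.

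**Figure D2:**
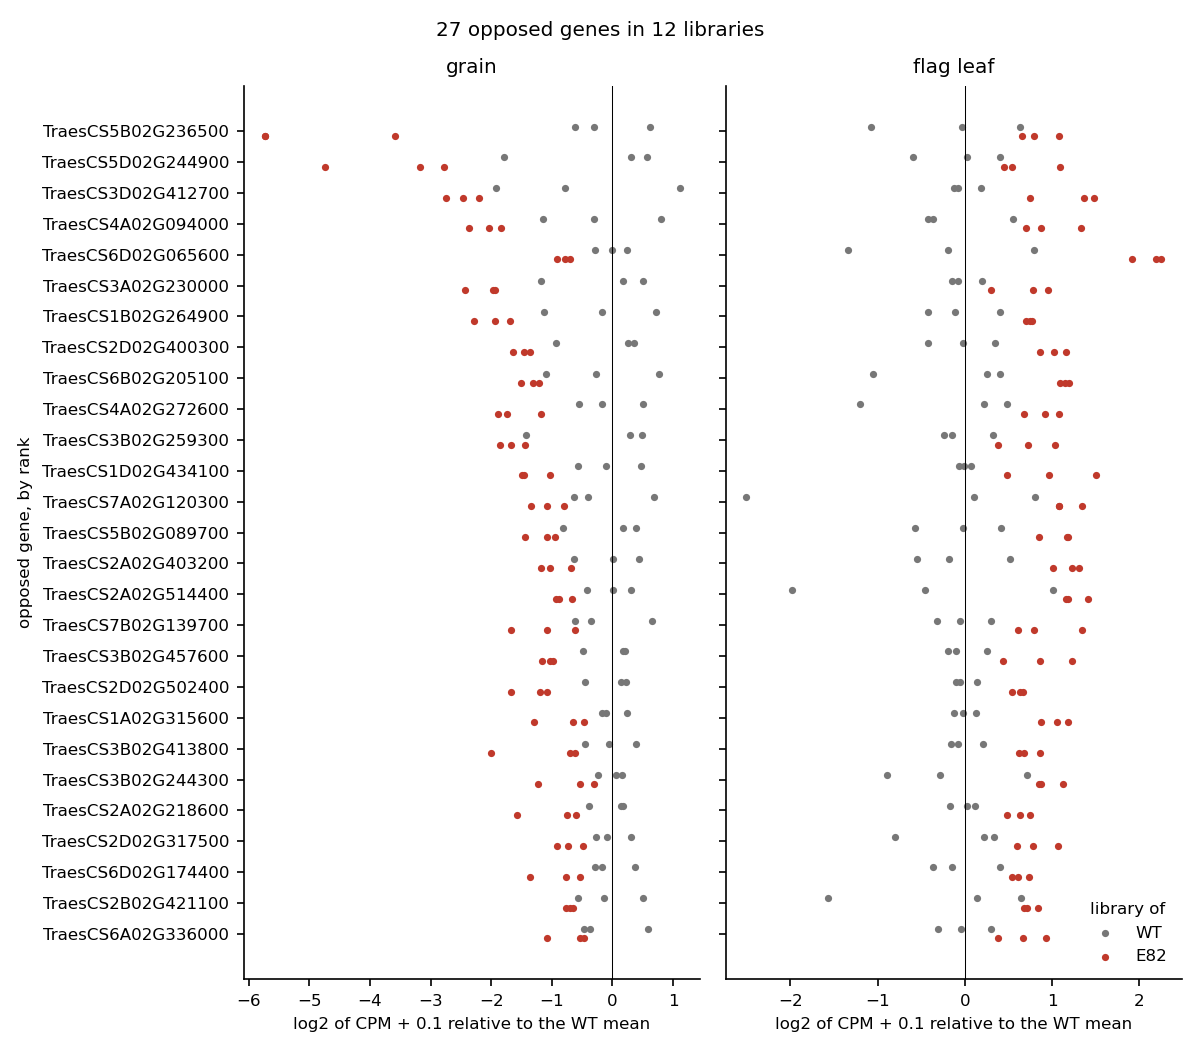
Level of each of the 27 opposed genes in each library, as log2 of CPM + 0.1 relative to the WT mean of the tissue (x axis), in grain and in flag leaf, with WT libraries in grey and E82 libraries in red. The red points lie left of the grey points in grain and right of them in leaf, as the selection required, with narrow gaps in many rows.

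All 27 genes were tested with the rest of the table in edgeR's quasi-likelihood test with TMM scaling, where Benjamini-Hochberg adjustment ran over each tested gene of a comparison. Since the genes were chosen on these contrasts, nothing is read from their calls. In grain, 3 of the 27 were lower in E82 at an adjusted p under 0.05 by that test, where 1.31% of all 64706 genes tested were called lower. They were TraesCS1B02G264900, TraesCS3A02G230000 and TraesCS3B02G457600. At an unadjusted p under 0.05, 26 of the 27 were lower, beside 6.94% of all genes. In leaf none of the 27 was called higher by that test, beside 0.0204% of all 53874 genes. In leaf 19 passed an unadjusted p of 0.05, beside 14.2% of all genes. DESeq2 called 14 of the 27, where it called 3473 of all 53874 genes higher, and edgeR's likelihood ratio test 12 of the 27 and 5447 of all genes. The interaction of line and tissue, which asks whether the effect of E82 differed between leaf and grain, was past the threshold for 17 of the 27 in the quasi-likelihood test, beside 2.57% of all 70086 genes. The median fitted log2FC of the 27 was -1.33 (grain), 1.19 (leaf) and 2.67 (interaction), against 0.01, 0.21 and 0.37 over all genes. Scaling to library totals alone moved the median over all genes to 0.19, -0.06 and -0.04, in the same order, and the medians of the 27 to -1.07, 0.91 and 2.24. With that scaling 4 of the 27 were called lower in grain, beside 903 of 64706 genes, and 0 higher in leaf, beside 6 of 53874. In the interaction it was 11, beside 1475 of 70086 genes. The calls depended on single libraries, as did those of all genes. In grain 13 of the 27 were called without WT grain replicate 3, beside 1489 of 63570 genes, and 0 without WT grain replicate 1, beside 638 of 63382. In leaf 8 were called without WT leaf replicate 1, beside 7763 of 52152 genes, and in the interaction 3 without E82 grain replicate 2, beside 487 of 69335.

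Gene terms were read only for a single co-expression module, which the study had singled out among genes low in E82 grain. Of the 27 genes, 3 carried such a term. The fall of these 3 in grain is therefore not independent evidence, and the lack of a term says nothing of the other genes. None of the 27 was in the study's list of 20 starch synthesis related genes, of which SSI alone met the selection conditions. That list holds genes which the study had called different in grain, leaf or both. Absence from it therefore says nothing of a gene's part in starch synthesis. The first annotated gene, TraesCS7A02G120300 on chromosome 7A, is annotated as a starch synthase of the amyloplast that acts in amylopectin synthesis. It was at 76.9, 36.4 and 30.8 CPM in the WT grain libraries and at 22.6, 18.8 and 27.5 CPM in those of E82. In leaf it was at 30.2, 49.2 and 4.86 CPM in WT and at 59.7, 71.5 and 59.5 CPM in E82. The groups did not overlap in either tissue, but WT grain replicate 1 and WT leaf replicate 3 lay far from their fellow libraries. Without WT grain replicate 1 the gene no longer met the selection rule. The mean went from 48.0 ± 25.1 to 23.0 ± 4.37 CPM (SD, n = 3) in grain and from 28.1 ± 22.2 to 63.6 ± 6.88 CPM in leaf.

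The gene on 7D with the same starch synthase term, TraesCS7D02G117800, lay at nearly the same place in the order of gene IDs, 21.4% along its chromosome against 21.3% for TraesCS7A02G120300. It missed the leaf ratio. Its level was 124, 68.3 and 52.9 CPM in WT grain and 40.9, 39.0 and 35.9 CPM in E82 grain. In leaf it was 71.4, 70.0 and 53.5 CPM in WT and 75.4, 97.1 and 79.2 CPM in E82, again without overlap, but with a ratio of only 1.29. SSI on 7B, which the rule left out, had ratios of 0.333 in grain and 1.55 in leaf. All 3 of these synthases were thus lower in each E82 grain library and higher in each E82 leaf library, and the 7A gene had the widest spread in WT leaf. Across the 12 libraries, log2 CPM of the 7A gene followed that of the 7D gene with a Pearson's r of 0.653 and that of SSI with 0.483, values which share the depth and makeup of the libraries.

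The wider starch terms come from the same module, which the study singled out among genes low in E82 grain, so that their grain counts are not independent evidence either. Of the 7 genes of the term glycogen (starch) synthase activity, all 7 had each E82 grain library below each WT grain library, where 5.07% of the eligible genes did. In leaf the same 3 synthases named above were higher without overlap, beside 8.72% of the eligible genes, and 1, GBSSI/waxy on 7A (TraesCS7A02G070100), was lower without overlap, beside 23.6% of the eligible genes. Of the 13 genes of starch biosynthetic process, 10 were lower without overlap in grain and 3 overlapped there, while 2 were higher without overlap in leaf and 3 were lower there. Apart from TraesCS7A02G120300, 12 genes of that term were tested in grain and 0 were called by edgeR's quasi-likelihood test, with 11 lower at an unadjusted p under 0.05, where 6.94% of all genes were. In leaf 9 of the 12 could be tested and 0 were called, with 1 higher and 3 lower at an unadjusted p under 0.05, where 14.2 and 5.06% of all genes were.

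The second annotated gene, TraesCS7B02G139700, encodes an isoamylase, a debranching enzyme that trims amylopectin. Its grain level was 31.4, 15.5 and 13.1 CPM in WT and 12.97, 6.19 and 9.40 CPM in E82. The grain groups all but touched, with WT replicate 3 only 1.01 times E82 replicate 1. In leaf it was at 17.0, 20.5 and 26.2 CPM in WT and at 36.8, 53.9 and 32.5 CPM in E82, with no overlap. The mean went from 21.2 ± 4.68 to 41.1 ± 11.3 CPM (SD, n = 3) there.

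The other isoamylase genes of the same term did not share the leaf pattern. TraesCS7A02G251400 was at 4.91 ± 0.772 CPM in WT leaf and 4.07 ± 0.428 CPM in E82 leaf (SD, n = 3), and TraesCS7D02G249500 at 2.62 ± 2.76 and 2.47 ± 1.57 CPM, with overlapping libraries in both genes. In grain TraesCS7A02G251400 was lower in E82 without overlap, with a ratio of 0.423, while the grain libraries of TraesCS7D02G249500 overlapped at a ratio of 0.546. Within each gene the leaf level of the 7B isoamylase was thus close to its grain level in WT, and the leaf levels of the other genes of this term were well below theirs. The study's starch list also holds ISA3 (TraesCS5A02G248700), which is outside this term. Its fitted log2FC was 5.57 in leaf and 0.26 in grain. In leaf its adjusted p was 0.231 by edgeR's quasi-likelihood test, with an unadjusted p of 0.042.

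The third, TraesCS1D02G434100, is annotated with jasmonate-amino synthetase activity, the step that joins jasmonate to an amino acid and, in Arabidopsis, yields its active form. In grain it was at 61.7, 41.0 and 29.9 CPM in WT and at 16.0, 15.6 and 21.5 CPM in E82. In leaf the WT libraries were close together at 11.8, 11.1 and 10.7 CPM, and those of E82 were spread at 32.0, 15.8 and 22.0 CPM. The lowest E82 leaf library still stood 1.34 times above the highest WT leaf library. The other gene with that term, TraesCS1A02G425100, had lower means in E82 in both tissues, going from 22.8 ± 20.5 to 7.43 ± 0.561 CPM in grain and from 16.0 ± 5.96 to 9.93 ± 1.79 CPM in leaf (SD, n = 3), with overlapping libraries in both.

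**Figure D3:**
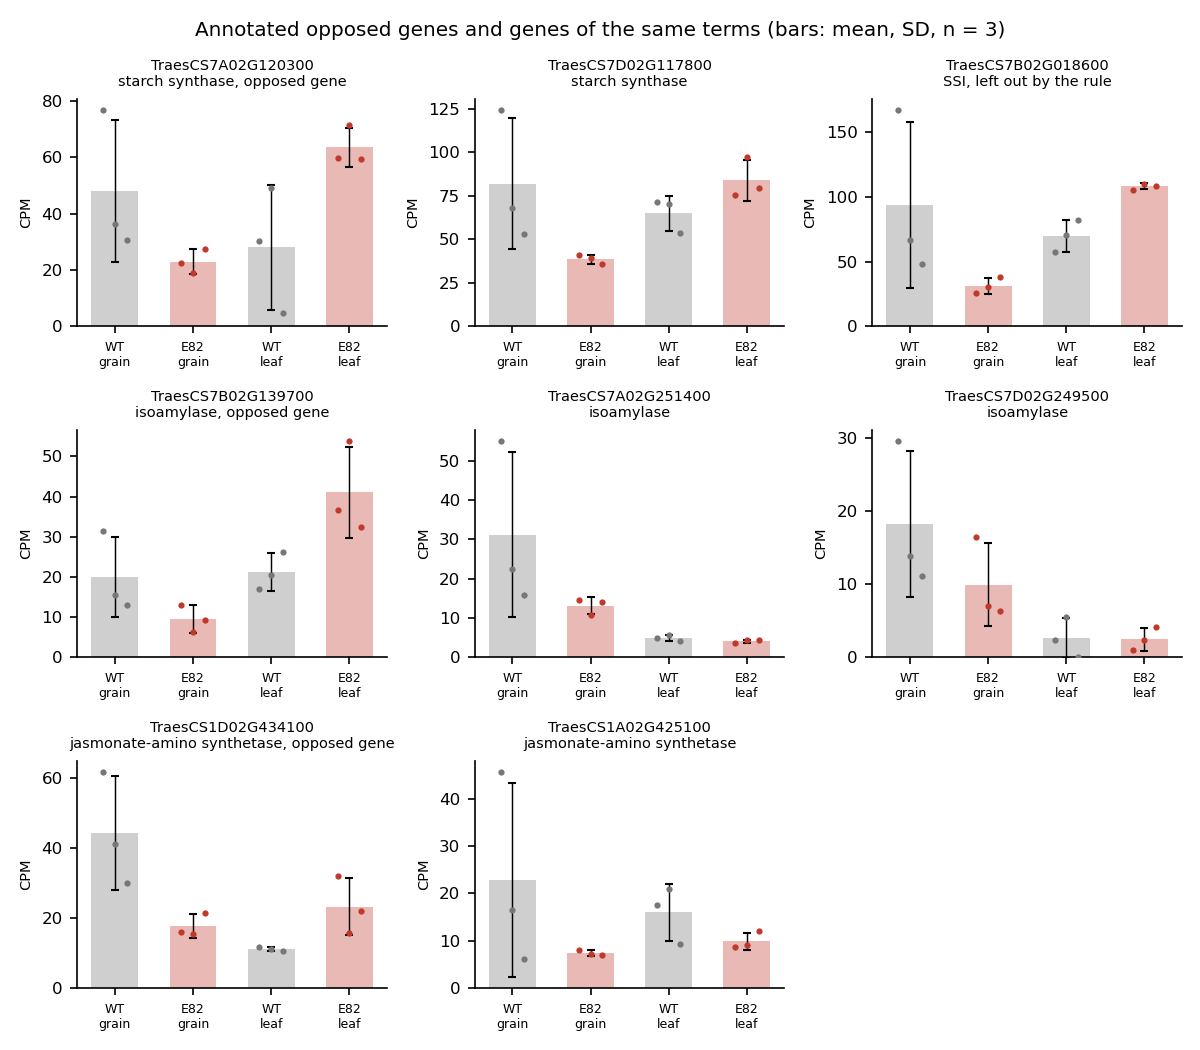
CPM in each library (points), with the mean (bars) and SD (n = 3, error bars), in WT and E82 grain and leaf, for the 3 annotated opposed genes and the other genes of their enzyme terms, with SSI. The 3 starch synthases are lower in E82 grain and higher in E82 leaf in each library, whereas of the other genes plotted only TraesCS7B02G139700 and TraesCS1D02G434100 are higher in E82 leaf.

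Several unannotated opposed genes stood at similar places on chromosomes of one group and had similar lengths. Whether they are homeologous copies was not tested here. Likeness of their profiles is only a description, since all opposed genes were selected for one pattern. Pearson's r of log2 CPM over the 12 libraries was also high for pairs at unlike places, such as 0.936 for TraesCS2D02G400300 with TraesCS2A02G218600 and 0.930 for TraesCS2D02G502400 with TraesCS2D02G317500. It was low for some pairs at like places, with 0.45 for TraesCS3D02G412700 and TraesCS3B02G457600 and 0.423 for TraesCS6B02G205100 and TraesCS6D02G174400. TraesCS3A02G230000 and TraesCS3B02G259300, 42.3% along the ID order of 3A and of 3B, were by far the most abundant in WT leaf per length, at 1778 and 1358 TPM (TPM being scaled to transcript length as well as to the library). TraesCS3A02G230000 held 2201, 2303 and 2786 CPM in WT leaf and 4709, 4196 and 2988 CPM in E82 leaf. TraesCS3B02G259300 held 1771, 1671 and 2452 CPM in WT leaf and 4011, 3255 and 2552 CPM in E82 leaf. In both genes the highest WT library was replicate 3, the lowest E82 library was also replicate 3, and these differed by only 1.07 and 1.04 times.

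In grain both genes were present at a small part of their leaf level. TraesCS3A02G230000 was at 59.5, 47.4 and 18.4 CPM in WT and at 7.63, 10.9 and 10.5 CPM in E82. TraesCS3B02G259300 was at 28.1, 32.5 and 8.50 CPM in WT and at 7.18, 6.30 and 8.45 CPM in E82. WT grain replicate 3 was the low library for both, and in the 3B gene it was level with E82 replicate 3. Pearson's r of log2 CPM between the pair over the 12 libraries was 0.997, which the large difference between the tissues sets in good part.

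A gene on 3D, TraesCS3D02G223300, narrowly missed the leaf ratio at 1.499 and is named after its values were seen. It stood at 40.7% of the ID order and had 2569 ± 542 CPM in WT leaf and 3852 ± 584 CPM in E82 leaf (SD, n = 3). Its grain level was 48.7 ± 31.6 CPM in WT and 12.2 ± 4.29 CPM in E82. It followed the 3A and 3B genes over the 12 libraries with an r of 0.996 and 0.995, which again reflect mainly the difference between leaf and grain. Since it was picked for its values, its likeness to the pair is no separate evidence.

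On group 2 all 3 subgenomes held an opposed gene, TraesCS2A02G403200, TraesCS2B02G421100 and TraesCS2D02G400300, at 67.7, 66.9 and 66.4% of the ID order and with longest transcripts of 2510, 2636 and 2594 bases. In grain TraesCS2D02G400300 was at 119, 111 and 48.5 CPM in WT and at 33.6, 29.5 and 35.9 CPM in E82. TraesCS2A02G403200 was at 94.5, 69.9 and 44.9 CPM in WT and at 30.7, 34.2 and 43.5 CPM in E82. TraesCS2B02G421100 was at 91.7, 58.6 and 43.2 CPM in WT and at 39.5, 37.7 and 41.1 CPM in E82. The E82 libraries of the 3 genes were close together, and WT replicate 3 came near them, by 1.03 times for the 2A gene and 1.05 times for the 2B gene.

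Each of these genes was lower in every leaf library than in every grain library of the same line. In leaf TraesCS2D02G400300 went from 12.9 ± 3.43 to 26.4 ± 2.72 CPM (SD, n = 3), TraesCS2A02G403200 from 8.78 ± 3.46 to 20.1 ± 2.07 CPM and TraesCS2B02G421100 from 13.1 ± 8.20 to 22.1 ± 1.34 CPM. The 2D and 2A genes had clear gaps of 1.43 and 1.41 times, while the 2B gene had one of 1.03 times. Pearson's r of log2 CPM between the 3 pairs lay between 0.907 and 0.945 over the 12 libraries.

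The highest ranks, by the log2 ratio in leaf minus that in grain, went to a pair on group 5 that was nearly lost from E82 grain. TraesCS5B02G236500 was at 4.22, 8.12 and 3.37 CPM in WT grain, and in E82 grain at 0, 0 and 0.347 CPM, the last being 11 counts. TraesCS5D02G244900 was at 8.48, 10.2 and 1.91 CPM in WT grain and at 0.669, 0.160 and 0.914 CPM in E82 grain. The grain gaps of 9.73 and 2.09 times were the widest of the 27. In leaf the 5B gene was at 2.72, 5.68 and 9.09 CPM in WT and at 12.4, 9.27 and 10.2 CPM in E82. The 5D gene was at 13.8, 17.9 and 8.98 CPM in WT and at 19.8, 18.6 and 29.1 CPM in E82. In leaf the lines were barely apart, by 1.02 and 1.04 times, and the high ranks of the pair came from grain, with E82/WT ratios of 0.0221 and 0.0847 there. The longest transcripts had 1881 and 1869 bases, the places in the ID order were 41.0 and 42.8%, and r over the 12 libraries was 0.921.

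**Figure D4:**
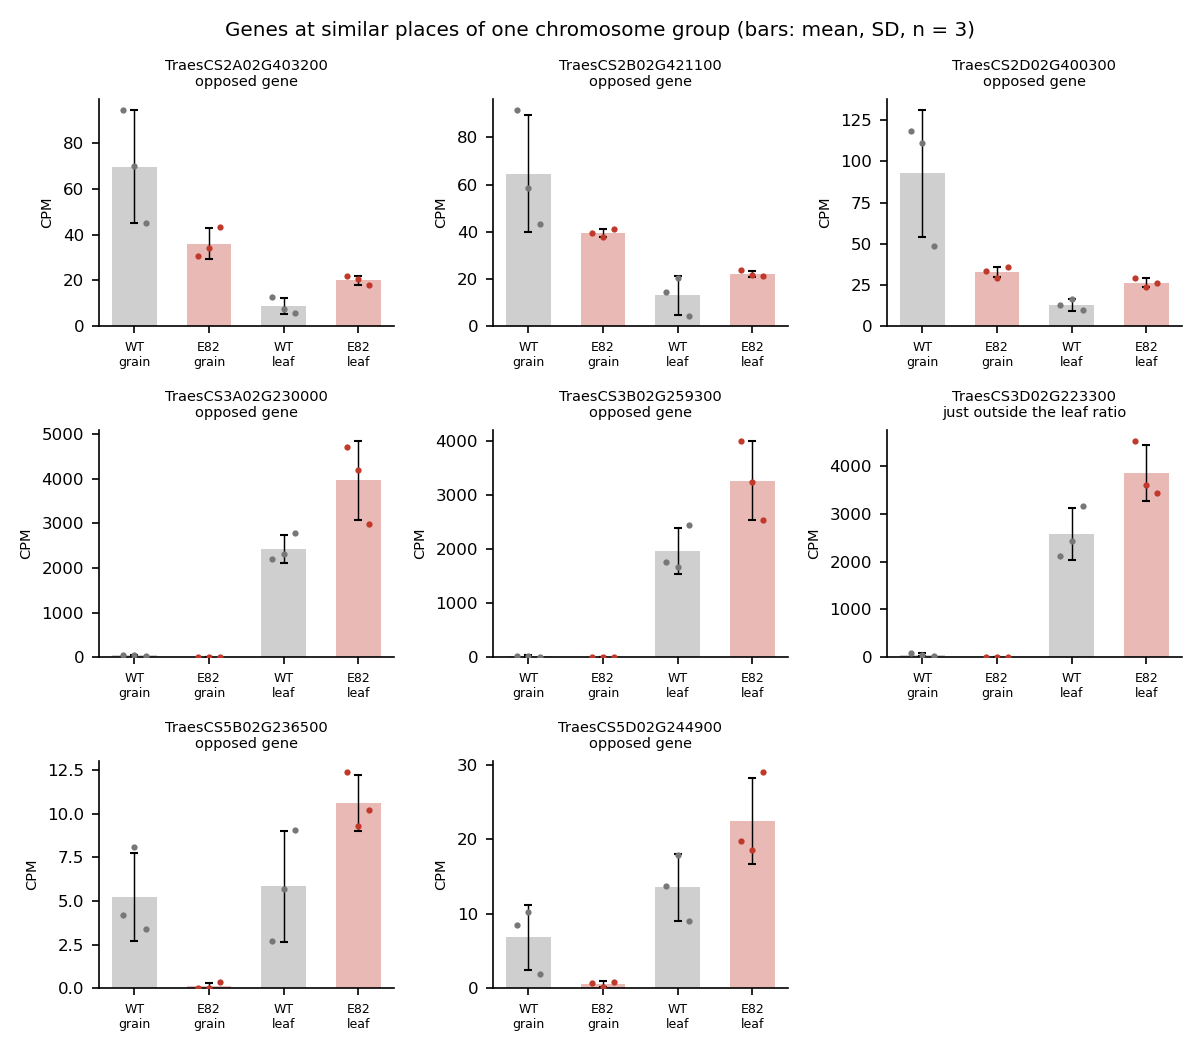
CPM in each library (points), with the mean (bars) and SD (n = 3, error bars), for opposed genes at similar places of chromosome groups 2, 3 and 5 and for TraesCS3D02G223300, just outside the leaf ratio. The genes of group 2 are highest in WT grain, those of group 3 far higher in leaf than in grain, and those of group 5 almost absent from E82 grain.

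Among the remaining genes of high rank, TraesCS6D02G065600 had the largest difference in leaf. It was at 9.12, 40.1 and 20.2 CPM in WT leaf and at 88.0, 111 and 107 CPM in E82 leaf, a ratio of 4.40. Its lowest E82 library was 2.20 times its highest WT library, the widest leaf gap of the 27. In grain it was at 9.76, 8.25 and 6.75 CPM in WT and at 4.73, 5.07 and 4.35 CPM in E82, a small but clear step with a ratio of 0.572.

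TraesCS3D02G412700 and TraesCS4A02G094000 were far higher in grain than in leaf in WT. TraesCS3D02G412700 was at 57.0, 15.3 and 6.94 CPM in WT grain and at 3.84, 4.71 and 5.68 CPM in E82 grain. TraesCS4A02G094000 was at 105, 48.5 and 27.1 CPM in WT grain and at 11.6, 16.8 and 14.7 CPM in E82 grain. In both genes the WT libraries spread far more widely than those of E82, from a high replicate 1 to a low replicate 3. In leaf TraesCS3D02G412700 went from 4.31 ± 0.522 to 10.3 ± 2.63 CPM (SD, n = 3), and TraesCS4A02G094000 from 4.62 ± 1.93 to 9.31 ± 2.18 CPM.

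TraesCS1B02G264900 was the most abundant in WT grain per length, at 34.3 TPM. Its libraries held 129, 239.8 and 66.7 CPM in WT grain and 37.9, 29.7 and 45.1 CPM in E82 grain. In leaf it was at 157.2, 109 and 88.4 CPM in WT and at 199, 193 and 202 CPM in E82. The E82 leaf libraries were nearly identical, and both gaps, 1.48 times in grain and 1.23 times in leaf, were among the 7 that reached 1.2 in both tissues. TraesCS3B02G457600, next to it in WT grain, was at 112, 115 and 71.2 CPM there and at 50.2, 44.2 and 48.4 CPM in E82 grain. Its leaf level was low, at 5.55, 4.05 and 4.31 CPM in WT and 6.31, 10.999 and 8.52 CPM in E82.

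TraesCS6B02G205100 and TraesCS4A02G272600 had intermediate levels in both tissues. TraesCS6B02G205100 went from 36.2 ± 23.1 to 14.3 ± 1.46 CPM in grain and from 15.7 ± 7.20 to 34.9 ± 1.198 CPM in leaf (SD, n = 3). TraesCS4A02G272600 went from 23.1 ± 8.86 to 7.75 ± 2.13 CPM in grain and from 11.1 ± 5.62 to 20.9 ± 2.92 CPM in leaf. WT leaf replicate 2 was the low library for both, at 7.51 and 4.78 CPM.

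The rest of the 27 ranked below the first 12, though not each of their changes was small. TraesCS2D02G502400 was a leaf gene, at 177 ± 16.2 CPM in WT leaf and 271 ± 11.7 CPM in E82 leaf (SD, n = 3), with 7.09 ± 1.70 CPM in WT grain and 2.83 ± 0.589 CPM in E82 grain. It had the smallest leaf ratio of all, 1.53, but gaps of 1.57 times in grain and 1.32 times in leaf, so that its replicates were tight. TraesCS5B02G089700 went from 5.87 ± 2.31 to 2.61 ± 0.458 CPM in grain and from 10.5 ± 3.51 to 22.2 ± 2.82 CPM in leaf. TraesCS2A02G514400, TraesCS1A02G315600, TraesCS3B02G413800 and TraesCS2D02G317500, named after their values were seen, had grain ratios of 0.564, 0.587, 0.505 and 0.609 and leaf ratios of 2.40, 2.09, 1.66 and 1.78. TraesCS2A02G514400 owed its leaf ratio in part to WT leaf replicate 3, at 2.24 CPM beside 18.6 and 6.69 CPM in the other WT libraries. TraesCS1A02G315600, in contrast, was tight in leaf, with 3.62 to 4.32 CPM in WT and 7.33 to 9.08 CPM in E82.

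The thresholds cut through a continuum. Just inside the grain ratio were TraesCS3B02G244300 at 0.639, TraesCS6A02G336000 at 0.622 and TraesCS2B02G421100 at 0.611, and just outside were genes at 0.676, 0.693 and 0.698. Just inside the leaf ratio were TraesCS2D02G502400 at 1.53, TraesCS2A02G218600 at 1.55 and TraesCS6D02G174400 at 1.56, and just outside were genes at 1.499, 1.42 and 1.29. In TraesCS6A02G336000 the grain lines were level at the edge, with a WT library of 5.6004 CPM and an E82 library of 5.58 CPM. The minimum of 10 counts was not near any of the 27, since the lowest estimated count in a WT leaf library was 42.9, in TraesCS3B02G244300. The minimum of 5 CPM in WT grain lay just under TraesCS5B02G236500, at 5.24 CPM.

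The replicates of WT grain did not weigh alike. Replicate 3 was the lowest WT grain library in 21 of the 27 genes (77.8%), where it was the lowest in 23.3% of the eligible genes. Replicate 1 was the highest in 16 (59.3%), where it was the highest in 15.3% of the eligible genes. Relative to the E82 grain mean, the median of the 27 was 2.61 in replicate 1, 2.10 in replicate 2 and 1.47 in replicate 3. The difference from E82 was therefore of very different size from one WT plant to the next.

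Endosperm markers other than the storage globulin Glo3 showed the same order of the WT libraries. Among the 9 marker genes, 7 were highest in WT grain replicate 1 and 7 were lowest in replicate 3. The Glo3 genes, which made up most of the summed level, did not follow it. In WT grain replicates 1, 2 and 3 TraesCS4A02G296000 was at 1751, 4955 and 2970 CPM and TraesCS4A02G296100 at 7612, 7365 and 8386 CPM. All 9 markers summed to 10386, 12551 and 11444 CPM there. The 7 markers other than the storage globulin Glo3 summed to 1023, 231 and 88.9 CPM in WT grain replicates 1, 2 and 3 and to 32.7, 39.1 and 41.3 CPM in E82 grain. In leaf their sum stayed between 0 and 3.83 CPM, and 7 or 8 of the 9 markers held no more than 3 counts in each leaf library. GBSSI/waxy on 7D, TaPBF and OsBT1-1 had no count in any leaf library. The part that these WT grain libraries or the makeup of the grain samples had in the lower grain level of the opposed genes was not tested, and in bulk RNA fewer cells of a type and less RNA per cell cannot be told apart. Without WT grain replicate 1 the selection rule still chose 24 of the 27 genes, among 39 in all, and the median grain ratio of the 27 was 0.512. The 3 genes lost were TraesCS7A02G120300, the annotated starch synthase, TraesCS2B02G421100 and TraesCS6A02G336000.

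The WT leaf libraries, which stood apart in depth, in the share of aligned reads and in genes counted, bore on the leaf side. Without replicate 3, the shallowest, the rule chose 49 genes, 20 of them among the 27. The 7 genes it no longer chose were TraesCS1B02G264900, TraesCS2A02G218600, TraesCS2B02G421100, TraesCS2D02G317500, TraesCS2D02G502400, TraesCS5D02G244900 and TraesCS6D02G174400. Without replicate 1 it chose 41 genes, 26 of them among the 27, the gene lost being TraesCS5B02G236500. The part of the WT leaf libraries in the higher E82 leaf level of the opposed genes was not tested otherwise.

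**Figure D5:**
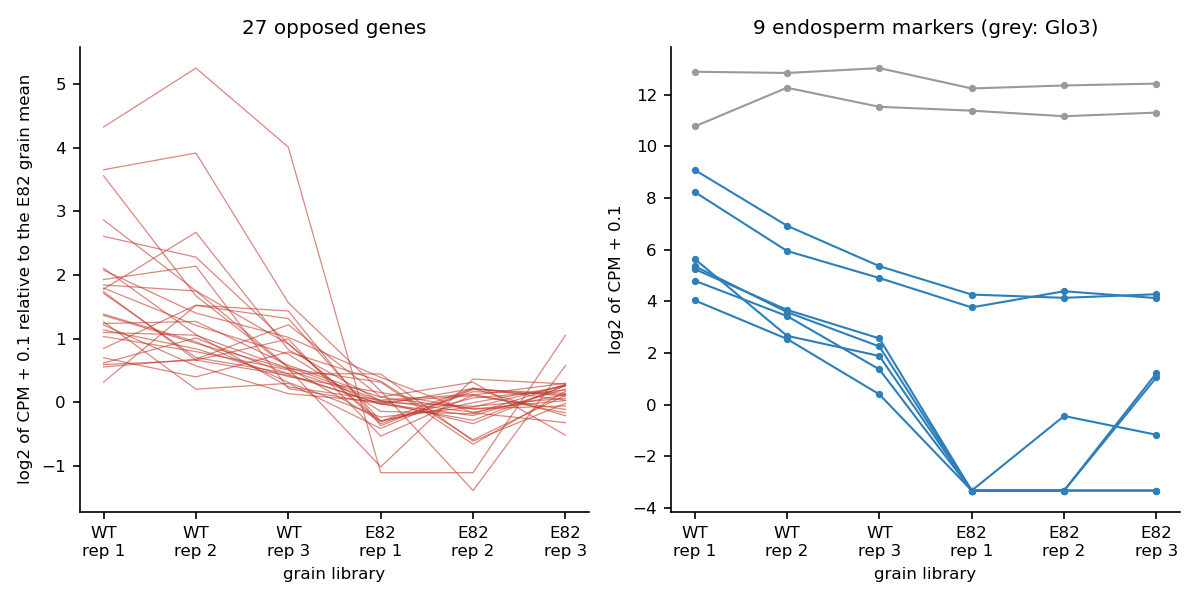
Left, the 27 opposed genes in the 6 grain libraries, as log2 of CPM + 0.1 relative to the E82 grain mean (1 line per gene). Right, log2 of CPM + 0.1 of the 9 endosperm markers in the same libraries (blue, with Glo3 in grey). The markers other than Glo3 lie highest in WT replicate 1 and lowest, among the WT libraries, in replicate 3, and 21 of the 27 opposed genes are likewise lowest in WT replicate 3.

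The balance between the tissues turned over in 9 of the 27 genes. In WT, 16 of the 27 (59.3%) had a higher mean CPM in grain than in leaf, near the 53.5% of all eligible genes. The other 11 had the reverse, whereas in E82 it was 7 and 20. Not all of these were clear of overlap. Each WT grain library was above each WT leaf library in 12 genes and each E82 leaf library above each E82 grain library in 18, and both held in 3. The shares of all eligible genes were not counted for E82, for the turn or for these counts without overlap. Since the selection lowers the grain value and raises the leaf value in E82, a shift of this direction is built in and is given only as a description.

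By CPM, the medians of the opposed genes were 23.1 in WT grain and 12.9 in WT leaf, against 16.1 and 16.6 for all eligible genes. Their levels were also taken by TPM, which corrects for transcript length. In WT grain the mean over the 3 libraries ran from 1.66 to 34.3 TPM with a median of 9.92 TPM, and TraesCS1B02G264900 and TraesCS3B02G457600 led with 34.3 and 32.6 TPM. In WT leaf the median was 4.97 TPM, but TraesCS3A02G230000 and TraesCS3B02G259300 stood at 1778 and 1358 TPM. The third highest in WT leaf, TraesCS2D02G502400, was at 105 TPM.

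The longest transcript of the opposed genes had a median of 2377 bases, against 1800.0 for the eligible genes, 1973 for the genes lower in E82 grain and 1940.0 for those higher in E82 leaf. They lay on 17 chromosomes, with at most 4 on one, and 9, 10 and 8 of them were on the A, B and D subgenomes, where 32.9, 32.2 and 34.1% of the eligible genes lay. Groups 2 and 3 held 7 and 6 of the 27, and group 4 and group 7 held 2 each. More than 1 transcript was annotated for 14 of the 27 (51.9%), against 34.9% of the eligible genes. These shares were not tested.

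The values per transcript of these 14 genes are not independent of the selection, since the counts per gene come from the same estimates. The same transcript led in all 12 libraries in 5 of them, TraesCS1B02G264900, TraesCS2D02G400300, TraesCS3B02G259300, TraesCS2A02G403200 and TraesCS6A02G336000. The transcript with the largest fall of mean TPM in grain was not the one with the largest rise in leaf in TraesCS3A02G230000, TraesCS1D02G434100 and TraesCS2A02G514400. Shares of transcripts that differ by few bases are estimates that can jump between 0 and 100%, and they were not tested.

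TraesCS3A02G230000 used different transcripts in the tissues. Transcript 2 (1345 bases) took 90.8 to 94.6% of its TPM in each leaf library of either line, while transcript 3 (1581 bases) took 79.3, 100 and 66.6% in WT grain and 100, 25.2 and 69.5% in E82 grain. The grain difference was largest in transcript 3, from 18.4 to 3.23 TPM, and the leaf difference in transcript 2, from 1627 to 2695 TPM. By group means the lines did not differ in the leading transcript of either tissue. In E82 grain replicate 2, however, transcript 2 led with 74.8%. In its 3B counterpart, TraesCS3B02G259300, transcript 1 (1411 bases) led throughout, with at least 84.4% in each library.

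The isoamylase gene TraesCS7B02G139700 was read from transcript 2 (2918 bases) in all 6 grain libraries and all 3 E82 leaf libraries, at 100%. In WT leaf transcript 1 (2834 bases) took 0, 96.3 and 100%. The jasmonate-amino synthetase gene TraesCS1D02G434100 had transcript 1 (2447 bases) at 100% in each WT leaf library and at 28.5% and 100% in E82 leaf replicates 1 and 2, and next to none of it was found in replicate 3. TraesCS3B02G457600 had transcript 3 (2168 bases) at 99.957 to 99.976% in the WT leaf libraries, and at 56.6, 76.8 and 51.1% in those of E82, where transcript 1 (2377 bases) took the rest. In grain transcript 1 of that gene led in all 6 libraries. The leading transcript of the mean differed between WT and E82 leaf in 5 of the 14 genes and between WT and E82 grain in 4.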

How the data were processed

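Grain and flag leaf RNA of WT and E82 was depleted of rRNA and sequenced. The authors used Trimmomatic 0.36 for trimming and kallisto 0.44.0 for quantification against the IWGSC RefSeq v1.1 transcripts, and the deposited values are estimated counts per gene and TPM per transcript. The submitters' processing notes also name edgeR 3.22.5 and R 3.6.3. Estimated counts were rounded for the tests. Genes with a summed CPM over 1 across the libraries of a fit were tested with edgeR 4.0.16 (quasi-likelihood, TMM, R 4.3.3) and Benjamini-Hochberg adjustment at 0.05, with 6 libraries per tissue and 12 for the interaction. DESeq2 1.42.0 and limma 3.58.1 served as alternatives, with other scalings, filters, a replicate block and each library left out. The steps were tested on simulated data. TPM was summed per gene and compared as shares per transcript. A count of 3 was taken as the floor of a library, from 0.0501 to 0.11 CPM, which covers counting error only.

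The opposed genes and the lists were chosen with earlier results of these data known. The text names the 12 genes of highest rank, the 8 of highest mean CPM in WT grain, annotated members and other genes of their terms, the 3 genes just inside each threshold, and sets at like places of a chromosome group. Any further gene is named as picked once its values were known. Gene roles come from the study's tables. Homeologs by protein, promoters and functional classes were not analysed here. No replicates of a group matched within sampling noise (chi-square per degree of freedom 28.4 to 227).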

Additional observations from a re-analysis of the deposited data

Results flagged for a closer look

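The 27 opposed genes were chosen for opposite effects of E82 in leaf and grain in these libraries, so a test of that difference is set by the selection, and its values are given only as descriptions. In edgeR's quasi-likelihood fit of the interaction 17 of them were past an adjusted p of 0.05, beside 1803 of all 70086 genes tested (2.57%), and with a replicate block within line 0 of the 27 and 0 of all genes were. The values listed are those of the 17. The fitted log2 effect in leaf minus that in grain was 4.78 for TraesCS5D02G244900, 4.30 for TraesCS3D02G412700, 3.62 for TraesCS4A02G094000, 3.42 for TraesCS6D02G065600, 3.33 for TraesCS3A02G230000 and 3.14 for TraesCS1B02G264900. It was 3.01 for TraesCS2D02G400300, 3.03 for TraesCS6B02G205100, 3.01 for TraesCS4A02G272600, 2.90 for TraesCS3B02G259300, 2.90 for TraesCS1D02G434100 and 2.67 for TraesCS5B02G089700. The smallest of the 17 were 2.63 for TraesCS2A02G403200, 2.55 for TraesCS7B02G139700, 2.42 for TraesCS3B02G457600, 2.38 for TraesCS2D02G502400 and 2.03 for TraesCS2A02G218600. In the rest of the 27, not past the threshold, it ran from 1.86 for TraesCS6A02G336000 to 6.87 for TraesCS5B02G236500.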

How the results depend on the processing

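The interaction was also read under other settings for the 27, SSI and TraesCS7D02G117800, in 580 fits of single genes. All 580 kept their direction, which the selection largely sets, so that this is no measure of robustness. Of these fits, 127 were no longer past the threshold and 32 were newly past it. The rule chose 85 genes on TMM-scaled CPM and 123 without the minimum of WT leaf counts, with all 27 among them in both cases, 16 on TPM, all of them among the 27, and 7 at ratios of 0.5 and 2. It chose 26 to 49 genes with a library left out. The median ratio of the 27 was 0.405 in grain and 2.29 in leaf on TMM-scaled CPM.

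Counts of calls depended strongly on the tool. In grain, 3 of the 27 and 845 genes in all were called lower. DESeq2 gave 17 and 2185, the likelihood ratio test 16 and 2156, all genes with at least 1 count 11 and 1463, limma on log2(TPM + 1) 0 and 495, and 12 libraries sharing one spread 1 and 148. Leaving out a library gave 0 to 13 and 294 to 1489. In leaf, 0 of the 27 and 11 genes in all were called higher. DESeq2 gave 14 and 3473, the likelihood ratio test 12 and 5447, filterByExpr 4 and 3279, and 12 libraries sharing one spread 4 and 3275. The count over all genes was 5 with RLE, 6 with library totals, 23 with all genes of at least 1 count and 700 with limma. Leaving out a library gave 0 to 8 and 0 to 7763, the highest without WT leaf replicate 1. For the interaction, 17 of the 27 and 1803 genes in all were called. DESeq2 gave 25 and 4479, the likelihood ratio test 24 and 5021, limma 8 and 869, and library totals 11 and 1475. Leaving out a library gave 3 to 21 and 487 to 5808. The cause was not tested.

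Same-numbered samples did not deviate together (Pearson's r of deviations from -0.0544 to 0.0273), so the replicate numbers were not taken as pairs. The study collected grain and flag leaf from 3 plants of each line, so the tissues may share plants. These correlations cannot decide that, and the main interaction fit took the 12 libraries as independent. A replicate block gave 1 of the 27 and 782 genes in all lower in grain, and 0 of the 27 and 1 gene in all higher in leaf. A block within line gave 0 of the 27 and 0 genes in all for the interaction. Depth limits the WT leaf values most, where a library held as few as 27173003 counts. The shares of aligned reads that the study reported were also lowest in WT leaf. The alternatives planned for homeologs by protein were not run.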
